A study of Mus musculus with 2 samples.

Results

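The major histocompatibility complex (MHC) genes and the genes that load and control their products were followed in regulatory T cell preparations from a mouse lymph node and from a mouse melanoma. The members are every gene of the deposited gene list whose symbol starts with H2-, together with B2m, Tap1, Tap2, Tapbp, Nlrc5, Ciita and Cd74, which came to 41 of 27998 genes. Of these, 30 had at least 1 UMI (unique molecular identifier, the count of 1 captured transcript) in the cells and 11 had none. Both libraries came from C57BL/6 mice of the genotype Foxp3Cre-YFP, in which the Treg gene Foxp3 drives the Cre allele, aged 5 to 8 weeks. The lymph node library came from an unchallenged lymph node and the tumour library from a B16 melanoma at day 14. Sorted cells were run on the 10x Chromium 3′ platform, with 1 library per tissue. The labels give neither the sort gate nor the number of mice pooled, and they name no second library of either tissue. Every difference below is therefore between these libraries, with no replicate check, and its 95% interval covers counting error only.

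MHC class I molecules are found on almost all nucleated cells: a heavy chain, encoded in the mouse by the classical genes H2-K1 and H2-D1 or by many non-classical H2-Q, H2-T and H2-M genes, pairs with the light chain B2m and shows peptides from inside the cell to CD8 T cells and natural killer cells. The transporter Tap1-Tap2 and its adaptor tapasin (Tapbp) supply and load those peptides, and interferons raise the whole set through factors such as Nlrc5. Class II molecules (H2-Aa, H2-Ab1, H2-Eb1) are typical of B cells, dendritic cells and macrophages, show peptides taken up from outside to CD4 T cells, need the invariant chain Cd74 and the editors H2-DM and H2-O, and are switched on by Ciita. Mouse T cells are not known as a main source of class II, whereas the debris of a lymph node or a tumour contains class II RNA from other cells.

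The rule kept 2202 lymph node and 1457 tumour cells: barcodes with 1811 (lymph node) or 3834 (tumour) UMIs or more, 200 or more detected genes and a mitochondrial share of up to 10%. Its gates further ask for fewer than 20 UMIs of Pmel, Dct and Mlana (melanoma), fewer than 3 of C1qa, C1qb and Lyz2 (macrophages) and fewer than 2 of Cd79a and Ms4a1 (B cells). Those gates left out 11 and 18 barcodes. The cells held 10681101 and 16669263 UMIs, with medians of 4100 and 8766 UMIs per cell. Free RNA was read in the same libraries from 75220 and 69268 barcodes of 11 to 100 UMIs (medians 33 and 53). The libraries shared 1 cell barcode, and no doublet caller was run. Against the label, the T cell gene Cd3e stood at 533.6 and 552.4 UMIs per 1000000 cell UMIs (CPM) in the lymph node and the tumour. At an equal depth of 2000 UMIs per cell the Treg gene Ikzf2 was found in 58.6% and 83.7% of cells and Foxp3 in 4.29% and 4.87%. Foxp3 in the cells stood at 4.08 and 8.07 times its free RNA level, and Cd8a had no UMI in the cells of either library. The other CD8 chain gene, Cd8b1, stood at 17.6 and 19.5 CPM in cells and 14.6 and 19.7 CPM in free RNA.

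The promoters of the class I genes whose levels are given below carry closely related blocks, so the 200 bases before the RefSeq start (build GRCm38.p6) are shown for those that differ in a telling way. Capitals mark matches, on either strand, to the NF-kB-type palindrome of class I promoters (the first capital block of H2-K1), the interferon-response letters TTTCNNTTC or a longer form with 1 more T before the final C, and the CCAAT box letters ATTGG.
H2-K1 (chr17:34000348-34000547, minus strand): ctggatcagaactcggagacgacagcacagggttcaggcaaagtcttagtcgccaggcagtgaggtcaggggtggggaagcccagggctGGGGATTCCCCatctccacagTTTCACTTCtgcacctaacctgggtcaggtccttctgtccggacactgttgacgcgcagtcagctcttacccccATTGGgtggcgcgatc
H2-Q7 (chr17:35438955-35439154, plus strand): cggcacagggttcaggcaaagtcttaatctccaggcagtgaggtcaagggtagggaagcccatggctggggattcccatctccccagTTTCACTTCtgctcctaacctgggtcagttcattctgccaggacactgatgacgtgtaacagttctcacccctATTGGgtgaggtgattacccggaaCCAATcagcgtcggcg
H2-Q4 (chr17:35379417-35379616, plus strand): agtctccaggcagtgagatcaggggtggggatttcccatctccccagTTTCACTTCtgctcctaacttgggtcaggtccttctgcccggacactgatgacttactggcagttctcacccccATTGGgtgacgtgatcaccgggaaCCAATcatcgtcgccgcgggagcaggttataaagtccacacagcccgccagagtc
H2-T22 (chr17:36042743-36042942, minus strand): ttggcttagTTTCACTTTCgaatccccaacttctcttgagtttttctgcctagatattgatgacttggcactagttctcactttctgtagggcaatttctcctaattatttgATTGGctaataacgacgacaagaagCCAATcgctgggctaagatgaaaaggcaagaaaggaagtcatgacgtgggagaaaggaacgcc
B2m (chr2:122147487-122147686, plus strand): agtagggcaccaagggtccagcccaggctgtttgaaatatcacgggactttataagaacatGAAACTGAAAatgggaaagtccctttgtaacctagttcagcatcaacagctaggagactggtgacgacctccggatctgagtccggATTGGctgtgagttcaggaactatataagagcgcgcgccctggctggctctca
The class II chain genes H2-Aa and H2-Eb1 are shown for contrast.
H2-Aa (chr17:34287824-34288023, minus strand): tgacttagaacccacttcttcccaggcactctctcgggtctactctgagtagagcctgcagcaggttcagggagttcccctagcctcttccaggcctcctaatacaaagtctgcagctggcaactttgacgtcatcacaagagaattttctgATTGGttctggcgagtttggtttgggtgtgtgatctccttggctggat
H2-Eb1 (chr17:34305667-34305866, plus strand): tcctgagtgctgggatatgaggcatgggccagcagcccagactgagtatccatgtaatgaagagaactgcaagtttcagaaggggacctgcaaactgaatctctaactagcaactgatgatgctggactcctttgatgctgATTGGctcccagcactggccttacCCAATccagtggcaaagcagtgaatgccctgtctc

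Promoters were matched for 34 of the 41 members, and H2-Ab1 was not among them. The exact NF-kB-type palindrome was found in 6 of 27025 promoters of this length (0.0222%), and H2-K1, H2-D1 and H2-Q6 were 3 of the 6. The closest block in H2-Q4 differed from it by the substitution C8T and that in H2-Q7 by C11A, with positions counted from 1 at the 5′ end of the motif and the motif's letter first. TTTCNNTTC was found in 8 members, with both classical genes and 6 of 20 non-classical genes among them, against 5.00% of all promoters. It was in none of the 3 class II chain promoters matched, which were those of H2-Aa, H2-Eb1 and H2-Eb2. The longer interferon-response form was found in B2m, where it reads GAAACTGAAA on the printed strand, in H2-T22 and in H2-T23, against 2.33% of all promoters. ATTGG was found in 29 of the 34 members, including the same 3 class II chain genes, against 30% of all promoters. These are letters in a window, not measured binding.

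The classical heavy chain genes were among the most abundant transcripts of both libraries and were higher in the tumour library. H2-K1 (chr17:33996017-34000347, minus strand, GRCm38) stood at 2205 CPM in lymph node cells and 3143 CPM in tumour cells, which is 1.43-fold higher (1.40 to 1.45). H2-D1 (chr17:35262730-35267499, plus strand) stood at 2665 and 4008 CPM, 1.5-fold higher (1.48 to 1.53). Together they made up 4870 and 7151 CPM, a ratio of 1.47 (1.45 to 1.48), and both were found in over 99% of the cells of each library. B2m, the light chain shared by all class I molecules (chr2:122147686-122153083, plus strand), stood at 4214 and 7519 CPM and was 1.78-fold higher (1.77 to 1.80). The light chain was therefore further apart between the libraries than either classical heavy chain. These counts tag the 3′ end of each transcript, so levels of different genes are compared without dividing by length.

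**Figure D1:**
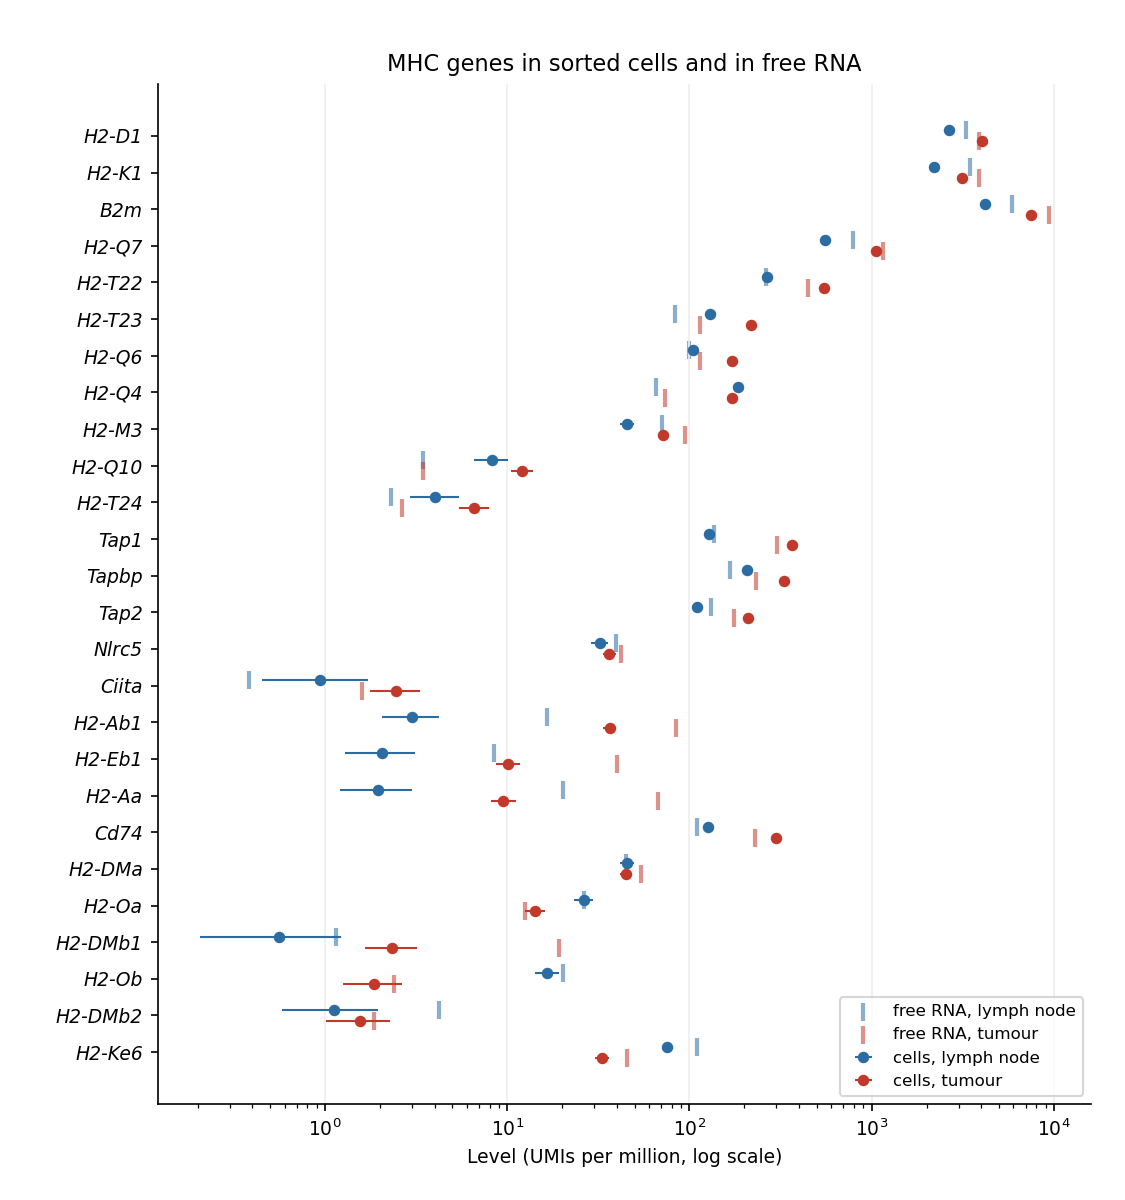
Level of each MHC gene with at least 20 UMIs, in CPM on a log scale, in cells (circles, with 95% counting intervals) and in free RNA (upright bars) of the lymph node (blue) and tumour (red) libraries. B2m, H2-D1 and H2-K1 lie above 2000 CPM in both tissues, while the class II chain circles lie below 40 and to the left of their free RNA bars.

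The non-classical class I genes were mostly higher in the tumour library as well, with H2-Q4 as the exception. Their 22 members summed to 1297 and 2256 CPM, 1.74-fold higher (1.71 to 1.77), and 8 of the 22 had 50 UMIs or more. H2-Q7, which encodes the Qa-2 antigen, stood at 553.7 and 1056 CPM (1.91-fold, 1.85 to 1.96). H2-T22, whose product is a ligand of some gamma-delta T cell receptors, stood at 267.0 and 549.3 CPM (2.06-fold, 1.97 to 2.15). H2-T23, which encodes Qa-1, the ligand that presents leader peptides to CD94-NKG2 receptors, stood at 129.8 and 217.7 CPM (1.68-fold, 1.58 to 1.79). H2-Q6, a near relative of H2-Q7, stood at 104.1 and 172.2 CPM (1.65-fold, 1.54 to 1.78). H2-M3, which presents formylated peptides, stood at 45.3 and 71.4 CPM (1.58-fold, 1.42 to 1.76). Their intervals all lay above 1. H2-Q10 stood at 8.24 and 12.1 CPM and H2-T24 at 4.03 and 6.60 CPM, both from under 250 UMIs per library, with intervals that lay above 1.

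H2-Q4 alone among the 8 was lower in the tumour library, at 184.0 and 170.2 CPM (ratio 0.925, 0.873 to 0.98). When cells holding at least 3 mitotic UMIs at full depth were left out it was higher in the tumour instead, at 1.11-fold. Its level in cells was 2.81 and 2.33 times that in free RNA, where H2-Q10 stood at 2.39 and 3.51, H2-T24 at 1.75 and 2.48, H2-T23 at 1.55 and 1.89, and H2-Q7 at 0.703 and 0.918. Barcodes with over 500 UMIs but below the cell thresholds, which are neither cells nor free RNA by the rule, held H2-Q4 at 453.4 and 474.0 CPM. Shared 3′ sequence limits how far counts can be given to a gene. Of 50-base windows in the last 400 transcript bases, 36.5% were unique for H2-T22, 59.8% for H2-Q6, 61.5% for H2-Q4 and 63.8% for H2-T23. The gene sharing the largest number of the 351 windows was Efr3a for H2-Q6 (97), Gm43321 for H2-Q4 (83) and Rab33b for H2-T23 (78). None of them is a member. The H2-T22 windows were shared with H2-T10, which is not in the gene list used for counting. The values of those 4 genes are therefore uncertain as to gene, whereas H2-K1 and H2-Q7 had 99.4% unique windows and H2-D1 87.8%.

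Peptide supply for class I was further apart between the libraries than the heavy chains. Tap1, a subunit of the peptide transporter, stood at 128.5 and 364.5 CPM, 2.84-fold higher (2.67 to 3.01) in the tumour library. Its partner Tap2 stood at 110.7 and 210.9 CPM (1.91-fold, 1.78 to 2.04). Tapbp, which holds empty class I molecules at the transporter, stood at 207.8 and 331.7 CPM (1.60-fold, 1.52 to 1.68). The 3 genes summed to 447.0 and 907.1 CPM, a ratio of 2.03 (1.96 to 2.10). Tap1 overlaps the oppositely oriented proteasome gene Psmb9, at 274.8 and 540.8 CPM, and no source used here says whether counting used strand, so reads of the overlap cannot be told apart. Nlrc5, the transactivator of class I genes, was nearly level at 32.2 and 36.3 CPM (1.13-fold, 0.986 to 1.29).

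Of 18 further genes of class I antigen processing, 2 were at least 2-fold higher in the tumour library, 0 lower and 16 between, with a median log2 ratio of 0.63. The share of all genes at least 2-fold higher was 13.2%, so a count of 2 in 18 does not exceed it, while the median lay above the 0.14 of all genes. The highest were Calr, a chaperone of the loading complex (239.3 and 563.1 CPM, 2.35-fold), and Hspa5, a general chaperone of the endoplasmic reticulum (132.9 and 302.0 CPM, 2.27-fold). The immunoproteasome gene Psmb9 was 1.97-fold higher (1.89 to 2.05). Psme2, of the proteasome activator, stood at 465.6 and 779.8 CPM (1.68-fold, 1.62 to 1.73).

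**Figure D2:**
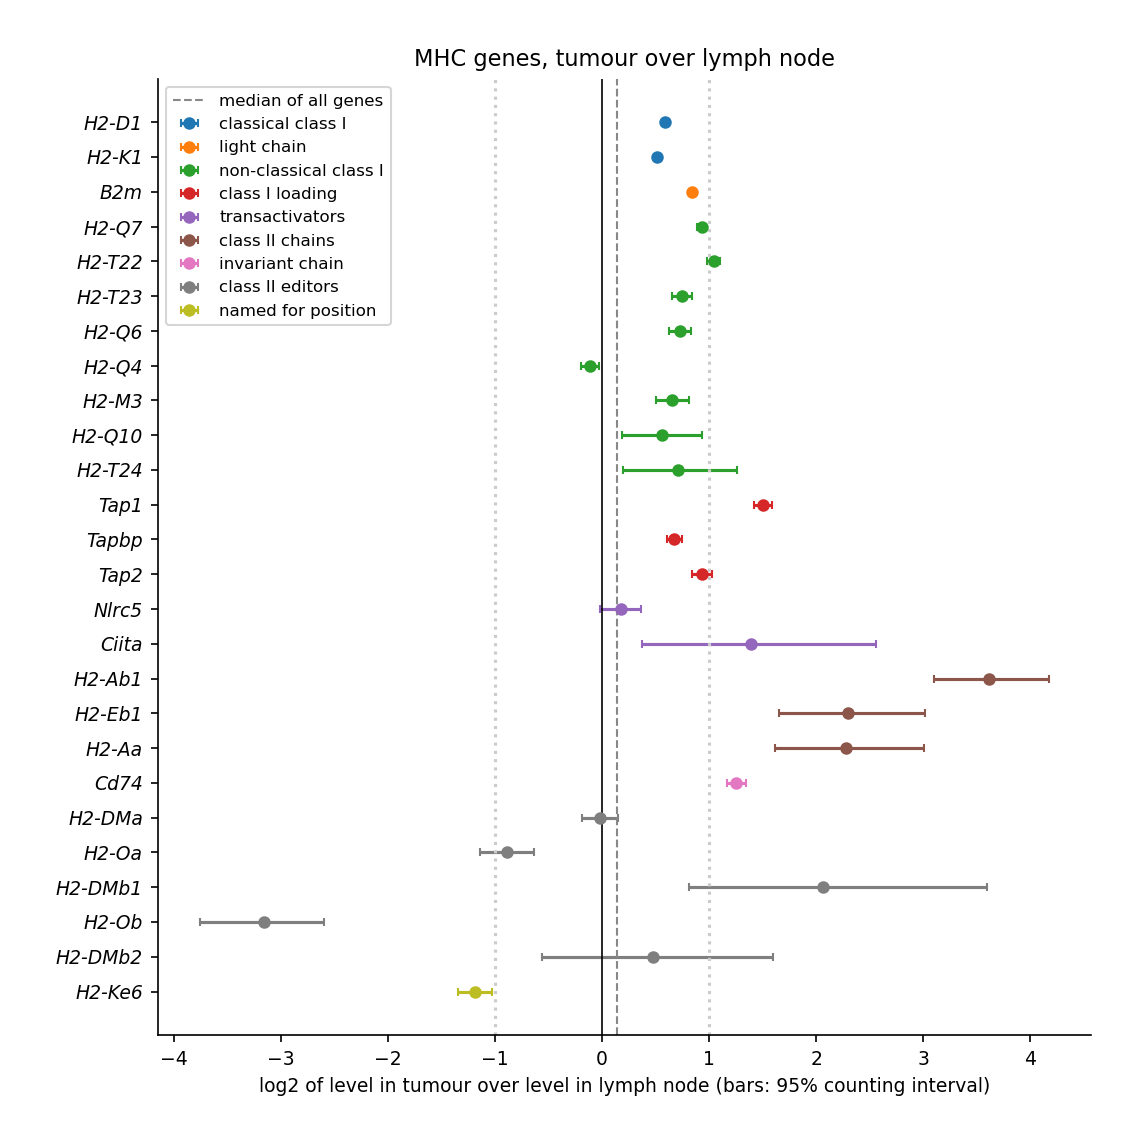
Ratio of the level in tumour cells to that in lymph node cells for each MHC gene with at least 20 UMIs, as log2 with 95% counting intervals, coloured by role; dotted lines mark 2-fold and the dashed line the median of all genes (0.14). All 3 class II chains lie beyond 2-fold to the right, H2-Ob lies at -3.16, and the classical class I genes sit between 0.51 and 0.59.

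Across all members the lean was upward. Of the 24 members with 50 UMIs or more, 7 were at least 2-fold higher in the tumour library, where 13.2% of all 9976 genes with that many UMIs were. The 7 were H2-T22, Tap1, Ciita, H2-Ab1, H2-Eb1, H2-Aa and Cd74. Another 2 members, H2-Ob and H2-Ke6, were at least 2-fold lower, where 7.7% of all genes were, and 15 lay between. With the gates left off, 4 of 26 members were at least 2-fold lower, where 6.87% of all genes were. The counting interval lay above 1 for 18 members (41.7% of all genes) and below 1 for 4 (25.2%). The median log2 ratio of the 24 was 0.72, against 0.14 over all genes. H2-T22 was below 2-fold when composition-adjusted (TMM) totals were used (1.92-fold) or when the UMI threshold was doubled (1.89-fold). Cd74 was below it among cells with a Foxp3 UMI (1.81-fold).

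Within each library the class I genes varied from cell to cell together. At 2000 UMIs per cell, which kept 2123 lymph node cells and all 1457 tumour cells, the median B2m count per cell was 8 in the lymph node and 17 in the tumour, with a 5th to 95th percentile range of 3 to 15 and 7 to 29. The variance over the mean of B2m was 1.62 and 3.11, that of H2-K1 1.56 and 2.51, and that of H2-D1 1.58 and 2.53. Genes with a mean of 2 to 20 UMIs per cell had a median of 1.43 and 1.5. Their 90th percentile was 2.003 in the lymph node and 3.069 in the tumour. B2m, H2-K1 and H2-D1 thus lay above the median in both libraries, but only B2m in the tumour lay above the 90th percentile. The mean of B2m was 8.67 and 17.4 UMIs per cell, and genes were not matched to it more closely than by this range. Across cells, the Pearson correlations among B2m, H2-K1 and H2-D1 were 0.268 to 0.330 in the lymph node library and 0.502 to 0.551 in the tumour library. The 9 correlations of these genes with Gapdh, Actb or Rplp0 were all below 0, from -0.36 to -0.06 in the tumour. Counts fixed at 1 total per cell share that total, and cells are not replicates, so these values describe the libraries and carry no test.

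Cells with more interferon-gene UMIs had more class I in both libraries. Cells were put in ranges by the summed UMIs of Ifit1, Ifit2, Ifit3, Isg15, Rsad2, Usp18, Oasl2, Irf7, Rtp4 and Zbp1 at 2000 UMIs per cell, none of which is a member. H2-K1 plus H2-D1 stood at 4639, 4996, 5470 and 6154 CPM in lymph node cells with 0, 1 to 2, 3 to 5 and 6 or more such UMIs (1170, 733, 152 and 68 cells). In tumour cells the same ranges gave 5447, 6531, 7788 and 9114 CPM (200, 482, 430 and 345 cells). Every step was upward in both libraries, and the tumour cells were higher in each range. The ratio of tumour to lymph node in the classical genes was 1.17 (1.152 to 1.197) among cells with 0 interferon UMIs and 1.48 (1.41 to 1.56) among those with 6 or more. The ranges are cuts along a continuous count, and they differ in depth (median UMIs 12080, 10319, 8469 and 7190 in the tumour). At equal depth they gave 5045, 5297, 5865 and 6699 CPM in the lymph node and 6995, 8052, 9101 and 10006 CPM in the tumour. The libraries were then further apart in the bottom range than the full-depth ratio of 1.17. At that depth the top range was 1.43 times the bottom one in the tumour and 1.33 times in the lymph node.

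The members differed in how steeply they followed this count. From the bottom to the top range, H2-T22 went from 242.0 to 573.6 CPM in the lymph node (2.37-fold) and from 324.4 to 853.2 CPM in the tumour (2.63-fold). H2-T23 gave 2.26-fold and 2.01-fold, and Tap1 2.79-fold and 1.90-fold. Of the single class I genes followed, these 3 had the widest spans in the lymph node, and H2-T22 and H2-T23 the widest in the tumour, ahead of H2-M3 at 1.96-fold. The longer interferon letters were found in the promoters of H2-T22 and H2-T23 and also in that of B2m, which gave 1.48-fold and 1.53-fold. Neither interferon-response form was found in the Tap1 promoter. H2-Q7 gave 1.37-fold and 1.59-fold. H2-Q4 also stood higher in the top range than in the bottom one, from 169.0 to 293.9 CPM in the lymph node and from 119.2 to 229.9 CPM in the tumour, while in each range it was lower in the tumour, at ratios of 0.706 to 0.795. Cd74 was not ordered by the count in the lymph node (135.1, 115.6, 92.5 and 138.1 CPM) and spanned 285.9 to 329.1 CPM in the tumour. H2-Ab1 stood at 40.4 and 42.3 CPM in the bottom and top tumour ranges. Among 20 interferon-stimulated genes outside the MHC, 16 were at least 2-fold higher in the tumour library and 0 lower. Over all genes those shares were 13.2% and 7.7%. The sum of the 20 in free RNA was 3453 and 10313 CPM beside 2996 and 10724 CPM in cells. The part of free RNA in these ranges was not tested.

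**Figure D3:**
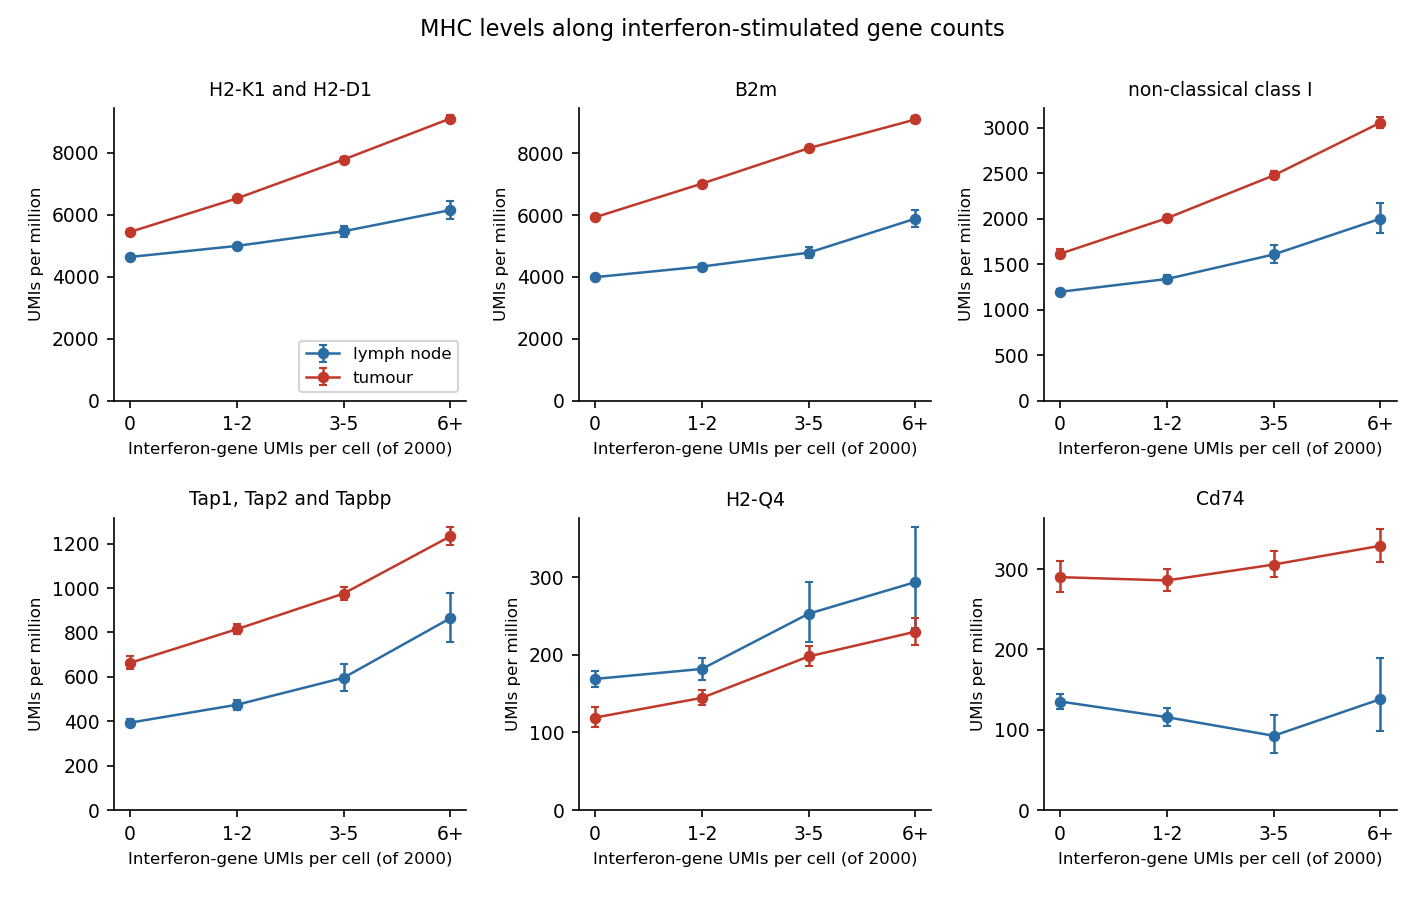
Levels (CPM, with 95% counting intervals) of 6 MHC genes or sums in cells grouped by their interferon-gene UMIs at 2000 UMIs per cell, for the lymph node (blue) and tumour (red) libraries. The class I panels climb from left to right in both tissues, H2-Q4 is the panel where the lymph node line lies above, and the Cd74 lines show no common slope.

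Cells with mitotic transcripts had lower classical class I levels. H2-K1 plus H2-D1 stood at 8600, 6610 and 5793 CPM in tumour cells with 0, 1 to 2 and 3 or more UMIs of 10 mitotic genes (814, 348 and 295 cells), and at 4960, 4251 and 4116 CPM in lymph node cells (1954, 128 and 41 cells). The median depth in those tumour ranges was 7138, 9333 and 17697 UMIs. At equal depth the tumour values were 9493, 8356 and 6815 CPM. The lymph node ranges had median depths of 4165, 4138 and 14672 UMIs. Their values at equal depth were 5262, 5176 and 4610 CPM, so the first step there was small. The tumour library held the larger share of mitotic cells. All 10 mitotic genes were at least 2-fold higher there, where 13.2% of all genes were. A separate setting left out cells holding at least 3 mitotic UMIs at their full depth, which takes out more and deeper cells and kept 2129 and 891. There the classical genes were 1.83-fold higher in the tumour, and 11 of 23 members with 50 UMIs or more were at least 2-fold higher, where 12.4% of all genes in that setting were.

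Class II chain transcripts were scarce in both libraries and stood below free RNA in both. H2-Ab1 (chr17:34257689-34269419, plus strand) had 32 UMIs in lymph node cells and 610 in tumour cells, which is 2.996 and 36.6 CPM and 12.2-fold higher (8.56 to 18.0). Its ratio was 4.33 with the gates left off, 19.3 without the 5% of cells with most UMIs and 20.2 without mitotic cells. It was 19.2 as a mean over cells, 23.3 at equal depth and 24.3 with free RNA subtracted. H2-Aa (chr17:34282744-34287823, minus strand) had 21 and 159 UMIs, 1.97 and 9.54 CPM (4.85-fold, 3.07 to 8.06). H2-Eb1 (chr17:34305867-34316674, plus strand) had 22 and 169 UMIs, 2.06 and 10.1 CPM (4.92-fold, 3.15 to 8.06). The 3 chains summed to 7.02 and 56.3 CPM (8.01-fold, 6.33 to 10.3), beside 4870 and 7151 CPM of classical class I. With the gates left off, the class II ratio was 3.95 in place of 8.01, and with free RNA subtracted it was 17.5. Ciita, the class II transactivator, had 10 and 41 UMIs (0.936 and 2.46 CPM, 2.63-fold, 1.29 to 5.88). Among cells with a Foxp3 UMI, Ciita had 2 and 3 UMIs and its ratio turned to 0.614. H2-Eb2 had 1 and 0 UMIs.

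Set against free RNA, the chains in cells reached 0.155 (0.115 to 0.209) of the free RNA level in the lymph node and 0.294 (0.266 to 0.324) in the tumour. Classical class I reached 0.718 and 0.922 of its free RNA level. The same ratio was taken for markers of other cell types: the median over those with at least 10 free UMIs was 0.108 in the lymph node (8 genes, 0 to 1.34) and 0.0671 in the tumour (16 genes, 0.00502 to 1.14). Among them the melanoma gene Tyrp1 stood at 0.0265 and the macrophage gene Apoe at 0.0416 in the tumour. The highest in the tumour were Cst3 (0.912) and Cd79b (1.14). In the lymph node, H2-Aa at 0.0968 and H2-Ab1 at 0.182 lay near Apoe (0.118), while H2-Eb1 was higher at 0.244 (0.129 to 0.462). In the tumour, H2-Aa at 0.141, H2-Eb1 at 0.254 and H2-Ab1 at 0.435 (0.379 to 0.499) lay above Tyrp1 and Apoe. Of the barcodes that the gates left out, 9 lymph node barcodes with B cell genes had 13775 CPM of class II chains and 2 with macrophage genes had 0 UMIs of them. In the tumour, 3 barcodes with macrophage genes had 11813 CPM and 15 with melanoma genes had 1163 CPM. With the gates left off, the chains stood at 1.03 and 0.963 of free RNA.

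**Figure D4:**
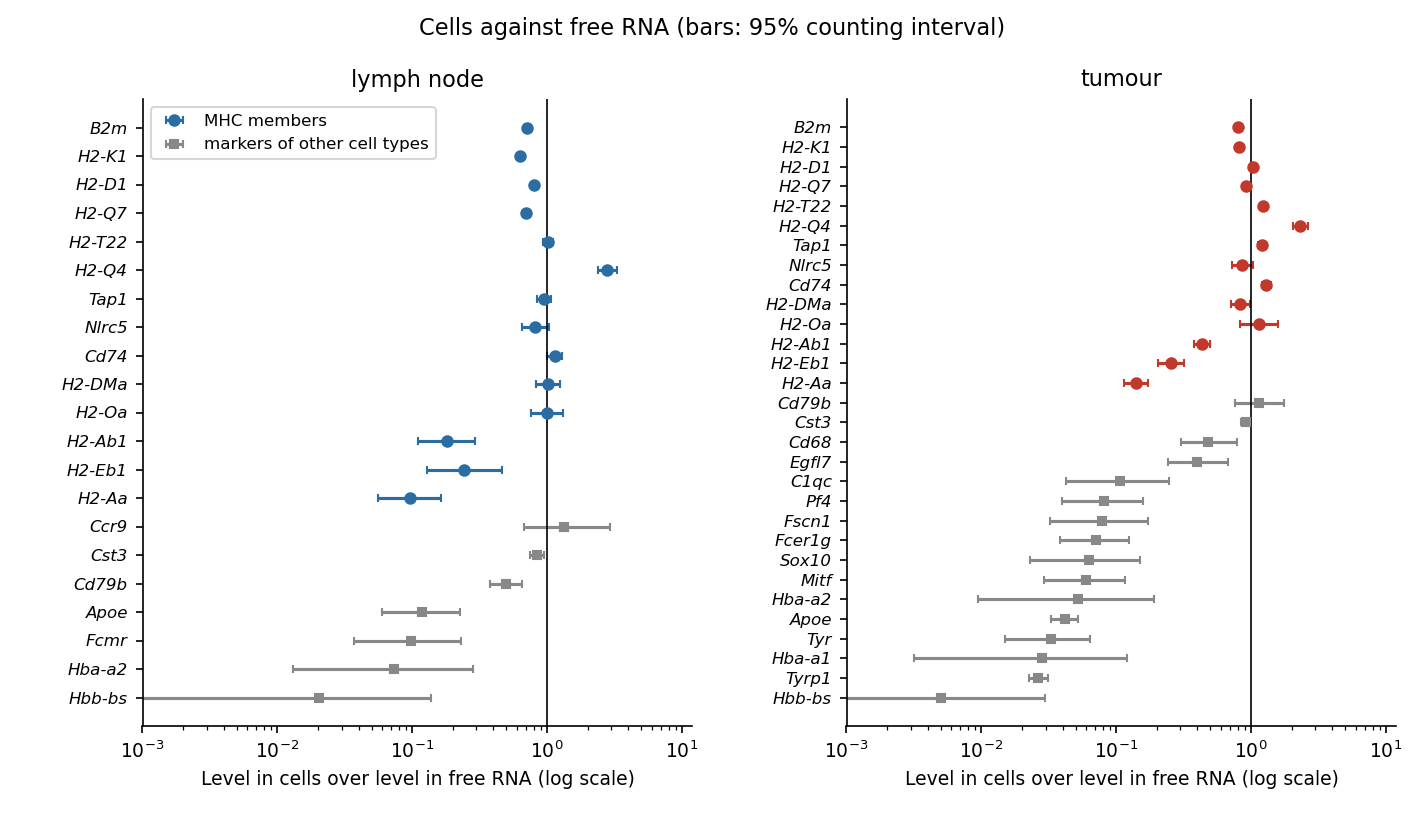
Level in cells over level in free RNA of the same library (log scale, 95% counting intervals) for MHC members (circles) and for markers of other cell types (grey squares), in the lymph node and tumour libraries. Of the members drawn, B2m, H2-K1, H2-D1, H2-Q7, H2-T22, Tap1, Nlrc5 and Cd74 lie between 0.634 and 1.30, H2-Q4 lies above 2, and the class II chains lie between 0.0968 and 0.435, with most grey squares to the left of them in the tumour panel; a marker at 0 is not drawn.

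Most cells had no class II chain UMI, and a few tumour cells held many. In the lymph node 2159 of 2202 cells (98.1%) had 0 such UMIs, 33 had 1, and the highest had 13 among 53058 UMIs in all. In the tumour 1069 of 1457 cells (73.4%) had 0, 247 had 1, 114 had 2 to 4, 21 had 5 to 9, and 6 had 10 or more. Those 6 cells held 73, 72, 71, 35, 25 and 11 UMIs, which is 30.6% of the library's 938, and the next cell had 8. All 6 had each of the 3 chains. Their Cd74 counts were 76, 150, 107, 26, 33 and 5 UMIs, and they held 7.94% of the library's Cd74 UMIs and 13 of its 26 H2-DMb2 UMIs.

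The 6 cells carried T cell transcripts and lacked the defining genes of professional antigen-presenting cells. Cd3e counts were 3, 23, 13, 2, 7 and 6 UMIs, and Ikzf2 counts 16, 17, 24, 17, 16 and 0 UMIs. The Treg list summed to 2018 CPM in them and 3118 CPM in the other tumour cells, and the T cell list to 2893 and 4106 CPM. All 12 macrophage and monocyte genes were at 0 (at most 30.1 CPM by the interval), 7 of 8 B cell genes were at 0 with 1 UMI in all, and 11 of 12 dendritic cell genes were at 0. The exception was Cst3 with 21 UMIs, at 171.6 CPM against 211.6 CPM for that list in the other cells. The rule removes barcodes with macrophage or B cell genes, so their absence is partly set by it, whereas the dendritic genes Itgax, Flt3 and Zbtb46 were not used by it. These cells were singled out after their values were seen, and whether any is a doublet was not tested. Without them the H2-Aa ratio of tumour to lymph node was 1.77 and that of H2-Eb1 2.95.

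In the other 1451 tumour cells H2-Ab1 was detected far more often than its partner chain. H2-Ab1 had 518 UMIs in 314 cells (21.6%), H2-Aa 55 UMIs in 46 cells (3.17%) and H2-Eb1 78 UMIs in 69 cells. The ratio of H2-Ab1 to H2-Aa was 9.42 (7.12 to 12.7) in these cells, 1.25 (1.06 to 1.48) in free RNA and 0.885 (0.661 to 1.18) in the 6 cells. A class II molecule needs an alpha chain such as that of H2-Aa to pair with the beta chain of H2-Ab1. The make-up of the chains thus differed between these cells and the free RNA by more than counting error. Relative to free RNA, H2-Ab1 stood at 0.372 (0.323 to 0.429), H2-Eb1 at 0.118 and H2-Aa at 0.0493 (0.0361 to 0.0662). The H2-Aa value lay close to Apoe (0.0416) and above Tyrp1 (0.0265, 0.0225 to 0.0311).

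Of the 320 tumour cells with an H2-Ab1 UMI, 273 (85.3%) had neither other chain. Their depth was larger, with a median of 12240 UMIs in H2-Ab1 cells and 8153 in the others. At 2000 UMIs per cell, 6.52% of tumour cells and 0.330% in the lymph node had an H2-Ab1 UMI. The same shares were 1.10% and 0.188% for H2-Aa, 1.17% and 0.330% for Apoe, and 2.47% and 0% for Tyrp1 (0 of 2123 cells). All 351 windows at the 3′ end of H2-Ab1 were unique, and no other gene of the deposited gene list overlaps it. Annotated genes outside that list were not checked for overlap. In the lymph node the ratio of H2-Ab1 to H2-Aa in cells was 1.25 (0.667 to 2.37), from 25 and 20 UMIs, and 0.811 in free RNA. The upper bound of 2.37 lay below the lower bound of 7.12 in the tumour.

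The H2-Ab1 level in tumour cells also went with transcripts of oxygen-responsive genes, a list of 12 (among them Bnip3, Vegfa and Slc2a1) that was chosen after the data were seen. Cells with 0, 1 to 2, 3 to 5 and 6 or more of its UMIs at 2000 UMIs per cell (255, 611, 419 and 172 cells) had H2-Ab1 at 29.1, 28.5, 40.2 and 65.5 CPM. At equal depth a UMI of H2-Ab1 was found in 3.14%, 4.26%, 8.59% and 14.5% of these cells. H2-Aa plus H2-Eb1 gave 29.5, 19.8, 18.5 and 9.71 CPM over the same ranges, and 10.0, 7.39, 7.22 and 9.71 CPM without the 6 cells. Apoe plus Tyrp1, genes of macrophages and melanoma cells, gave 17.4, 15.0, 14.2 and 18.0 CPM. H2-K1 plus H2-D1 gave 7417, 6933, 7339 and 7111 CPM. Only H2-Ab1 among these 4 quantities stood highest in the top range by more than its counting interval.

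**Figure D5:**
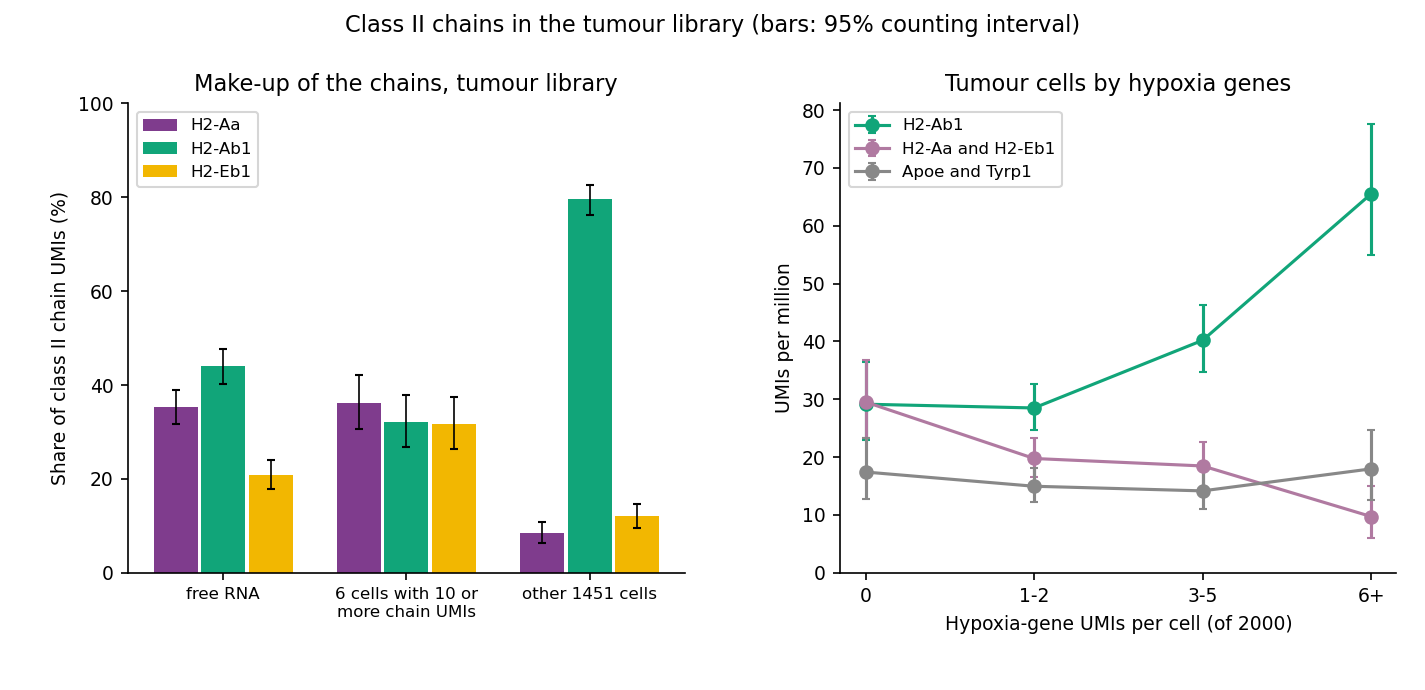
Left, share of class II chain UMIs (percent, 95% counting intervals) from H2-Aa, H2-Ab1 and H2-Eb1 in free RNA, in the 6 tumour cells with 10 or more chain UMIs and in the other 1451 tumour cells. Right, levels in CPM in tumour cells grouped by hypoxia-gene UMIs; H2-Ab1 made up 79.6% of chain UMIs in the other cells against 44.0% in free RNA, and it stood at 65.5 in the top range.

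Cd74, the invariant chain, behaved unlike the class II chains it serves. It had 1344 and 4999 UMIs, 125.8 and 299.9 CPM, and was 2.38-fold higher (2.24 to 2.53) in the tumour library. In cells it stood at 1.14 (1.0 to 1.3) and 1.30 (1.21 to 1.40) times its free RNA level. At 2000 UMIs per cell a Cd74 UMI was present in 13.3% of cells in the lymph node and 35.8% in the tumour, above the shares of Apoe given for the same depth. Its variance over the mean was 1.83 in the lymph node, where the 90th percentile of genes with a mean of 0.1 to 0.5 UMIs per cell was 1.13. In the tumour it was 2.46, where that of genes with a mean of 0.5 to 2 UMIs was 1.69. The highest 22 lymph node cells held 21.4% of its UMIs and the highest 15 tumour cells 13.2%. In the tumour it was lower in cells with 3 or more mitotic UMIs (237.6 CPM) than in those with 0 (378.4 CPM). In the lymph node the same ranges gave 141.6 and 118.4 CPM, a ratio of 1.196 whose interval spans 1 (0.946 to 1.49), and at equal depth the ratio was 2.56, from 41 cells with 19 UMIs. Without the 6 cells its ratio between the tissues was 2.24.

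Among the editors of class II loading both H2-O genes were lower in the tumour library, H2-DMa was level, and the H2-DMb genes had few UMIs. H2-DMa, a subunit of the H2-DM complex that frees the groove for peptide, was level at 45.7 and 45.0 CPM (ratio 0.985, 0.878 to 1.11) and near its free RNA level (1.02 and 0.834). H2-DMb1 and H2-DMb2, which encode its partner, were near the detection limit. H2-DMb1 had 6 and 39 UMIs (4.17-fold, 1.75 to 12.04) and stood at 0.122 of free RNA in the tumour. From so few UMIs its ratio moved between 1.64 (cells with a Foxp3 UMI) and 18.9 (equal depth, 1 and 13 UMIs). H2-DMb2 had 12 and 26 UMIs (1.39-fold, 0.676 to 3.02), and its log2 ratio turned to -1.78 at equal depth, to -1.24 with the gates left off and to -0.52 without the 6 cells rich in class II. H2-Ob, a subunit of the H2-O complex that restrains H2-DM, stood at 16.6 and 1.86 CPM, 8.91-fold lower in the tumour library (177 and 31 UMIs). H2-Oa, its partner, stood at 26.4 and 14.3 CPM, 1.85-fold lower. At 2000 UMIs per cell, H2-Ob was found in 3.58% and 0.412% of cells and H2-Oa in 3.86% and 3.02%. Over the 11 alternatives run, the log2 ratio of H2-Ob lay between -3.61 and -1.82. H2-DMa overlaps Brd2, on the other strand, at 692 and 1047 UMIs.

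Of 10 further genes of the class II pathway with 50 UMIs or more, 3 were at least 2-fold higher in the tumour library, 2 lower and 5 between, beside 13.2% higher and 7.7% lower over all genes. The 3 were the lysosomal proteases Ctsd (118.0 and 346.7 CPM, 2.94-fold), Ctsb (127.3 and 358.0 CPM, 2.81-fold) and Ctsz (57.6 and 161.6 CPM, 2.81-fold), which also act outside antigen presentation. Cd83, which stabilises class II at the surface of presenting cells, stood at 59.9 and 15.4 CPM, 3.90-fold lower. Among 19 genes of MHC transcription 3 were higher, 1 lower and 15 between, which is near the 13.2% and 7.7% of all genes. The interferon-gamma receptor subunits lay at opposite ends: Ifngr1 was 6.47-fold higher (103.5 and 669.1 CPM) and Ifngr2 9.19-fold lower (29.2 and 3.18 CPM). Irf8, a factor of interferon-driven transcription, was 4.84-fold higher (28.7 and 139.0 CPM). Ezh2, a Polycomb methyltransferase, was 2.17-fold higher.

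Of 15 genes listed as receptors that read MHC, 5 had 50 UMIs or more. Of these, 2 were at least 2-fold higher in the tumour library, 1 lower and 2 between, beside 13.2% higher and 7.7% lower over all genes. Lag3, a class II receptor of activated T cells, stood at 19 and 178.5 CPM (9.39-fold, 8.15 to 10.9). Lilrb4a, the other higher gene, had 3 and 657 UMIs, and whether its product reads MHC was not tested. Cd160 was lower in the tumour library, at 11.2 and 1.92 CPM. Cd4 stood at 120.7 and 181.1 CPM, 1.5-fold higher.

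H2-Ke6 carries the prefix for its place in the complex and encodes a steroid dehydrogenase, not a presenting molecule; it stood at 75.7 and 33.2 CPM, 2.28-fold lower in the tumour library. The remaining members were at or near 0. H2-Q2 had 9 UMIs in each library, H2-Q1 had 1 in each and H2-M5 had 0 and 1. The 11 with no UMI were H2-T3, H2-M1, H2-M2, H2-M9, H2-M11 and the 6 members of the H2-M10 group, and 0 of 2202 and 0 of 1457 cells allow a share of up to 0.136% and 0.206% of cells with a UMI, taken as 3 counts of the total.

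Class I levels were close in cells with and without a detected Foxp3 transcript. In the lymph node, H2-K1 plus H2-D1 stood at 4779 CPM (4657 to 4903) in the 211 cells with a Foxp3 UMI and at 4882 CPM (4838 to 4927) in the 1991 without. In the tumour the values were 7217 CPM (7121 to 7314) in 244 cells and 7136 CPM (7091 to 7181) in 1213. H2-Ab1 stood at 36.9 and 36.5 CPM in tumour cells with and without a Foxp3 UMI. Cd74 in the tumour stood at 260.5 CPM (242.5 to 279.5) with and 308.5 CPM (299.2 to 317.9) without. In the lymph node it stood at 143.6 CPM (123.1 to 166.6) with and 123.5 CPM (116.6 to 130.8) without. The intervals overlapped for all of these pairs except Cd74 in the tumour.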

How the data were processed

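Gene counts per barcode were deposited by the authors for 1 lymph node and 1 tumour library. They are unnormalised UMI counts over 737280 possible barcodes, made with Cell Ranger (version not given in the sources used here) on mm10, per the submitters' processing notes. The rest was computed here with Python 3.11.15, numpy 2.4.6, scipy 1.17.1 and pandas 2.3.3. UMIs were summed over cells and divided by the cells' total and multiplied by 1000000 (CPM). Ratios carry exact conditional-binomial intervals and shares exact binomial ones, which cover counting error only, and the interval was tested on simulated data. With 1 library per tissue there is no test and no p-value. To compare shares, cells were thinned to 2000 UMIs and 79 shallower lymph node cells left out. Members and lists were chosen with earlier results of these data known. Members with 20 UMIs or more are named with values, those with 50 or more enter counts of 2-fold differences, and up to 4 genes of each further list are named by the interval bound farthest from 1. All 41 member identifiers matched the GRCm38 gene annotation, and promoters came from RefSeq. Alternatives were TMM totals (edgeR 4.0.16, on the counts as deposited), equal depth, means over cells, other thresholds and gates, subsets of cells, and subtraction of free RNA. Alternatives without the cells rich in class II, or with H2-Aa and H2-Eb1 alone, and the hypoxia list were chosen after seeing the data.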

Additional observations from a re-analysis of the deposited data

How the results depend on the processing

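Values are log2 ratios of tumour to lymph node for classical class I (0.55 as reported), non-classical class I (0.80), class II chains (3.002), Cd74 (1.25) and class I loading (1.02), in that order unless named. TMM totals, which lower every ratio by 0.10 (shift -0.10), gave 0.46, 0.70, 1.15 for Cd74 and 0.92 for loading. Equal depth gave 0.73, 0.91, 3.59, 1.79 and 1.08, and means over cells 0.70, 0.92, 3.43, 1.72 and 1.14. A doubled UMI threshold gave 0.45, 0.72, 1.01 for Cd74 and 0.95 for loading. Leaving the gates off gave 0.50, 0.72, 1.98 for class II and 0.96 for loading, and requiring no gate-gene UMI gave 0.63, 0.86 and 1.40 for Cd74. Cells with a Foxp3 UMI gave 0.59, 0.84, 0.86 for Cd74 and 0.88 for loading. Leaving out mitotic cells gave 0.87, 1.05, 3.54, 1.71 and 1.22, and leaving out the 5% of cells with most UMIs gave 0.59 and, for Cd74, 1.54. Without the cells with 10 or more class II chain UMIs Cd74 was at 1.17. Subtracting free RNA gave 0.62 for classical class I and 4.13 for class II, and H2-Aa plus H2-Eb1 alone gave 2.29. No direction of these 5 sums changed. The count of members at least 2-fold higher (7) was 11 without mitotic cells, and the count lower (2) was 4 of 26 with the gates left off, where 6.87% of all genes were. The class II level over free RNA was 0.155 in the lymph node, 0.110 as a mean over cells and 1.03, on the other side of 1, with the gates left off. In the tumour it was 0.294, and 0.215 against barcodes of 11 to 30 UMIs, 0.963 with the gates left off, 0.339 with no gate-gene UMI, 0.205 without the cells rich in class II and 0.183 for H2-Aa and H2-Eb1 alone. Among single members H2-Q4 turned to 0.15 without mitotic cells and Ciita to -0.70 among cells with a Foxp3 UMI (2 and 3 UMIs). H2-Aa has no value with free RNA subtracted, since its lymph node level is then at or below 0. Another 51 values of these results kept their direction and moved by less than their counting interval. Depth limits the class II chains, Ciita, H2-DMb1 and H2-DMb2 most, with under 50 lymph node UMIs each. No paired analysis was possible because each tissue has 1 library and the labels give no replicate numbers. The tissue, the library and its depth cannot be told apart.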
